A study of Mus musculus with 2 samples.

Results

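Aminoacyl-tRNA synthetases are the enzymes that join each amino acid to its own transfer RNA, and so supply the ribosome with its substrates. Mammalian cells use separate sets for the cytosol and for the mitochondrion, nearly all encoded in the nucleus by different genes. Several cytosolic enzymes are held in a multi-synthetase complex on scaffold proteins. Many cytosolic synthetase genes are known targets of ATF4, the transcription factor of the integrated stress response, and Wars, for tryptophan, is also known to be induced by interferon gamma.

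The genes described were the 36 listed synthetase genes, matched by symbol among the 17145 rows of the deposited table, 20 for the cytosolic and 16 for the mitochondrial enzymes. Gars and Kars, whose genes give both the cytosolic and the mitochondrial enzyme, were counted as cytosolic. All 36 were found, and all 36 reached 1 FPKM (fragments per kilobase of transcript, scaled to library size) in the higher library.

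RNA was sequenced from primary cells labelled as hepatic stellate cells, which store retinoids in the liver, of the genotype Adar1f/f/Cre-ER. One library came from cells given vehicle and the other from cells given 100 nM 4-OHT (4-hydroxytamoxifen), which activates Cre-ER so that it deletes the floxed gene of the RNA-editing enzyme ADAR1. Both were grown for 4 days in culture, where stellate cells become activated, and the comparison addressed how loss of ADAR1 alters gene expression during this activation. Both groups carried the floxed alleles and Cre-ER, and only one received 4-OHT, so the drug itself and the deletion cannot be told apart. The promoter that drives Cre-ER and the number of animals were not given in the sources used here. There was 1 library per group, so no difference below has a replicate check, no test across replicates was made, and every difference is between these libraries. Adar itself was not analysed here.

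In depth, each FPKM per kilobase of effective transcript corresponded to 38.6 fragments in the vehicle library and to 30.5 in the 4-OHT library. The labelled cell type was checked against its markers. Of 12 stellate markers 10 were measured, and they summed to 797 FPKM with vehicle and 705 FPKM with 4-OHT. Most of this sum came from Vim, which many cells express, at 630 and 666 FPKM. The other 9 were all lower with 4-OHT, among them Acta2 at 86.8 and 8.87 FPKM and Col1a1 at 24.1 and 7.66 FPKM. All 12 macrophage markers were measured and summed to 5861 and 4035 FPKM. Lyz2, which encodes lysozyme, made up much of this sum, at 3050.5 and 1353 FPKM. Of the 12, 7 were lower with 4-OHT, among them the Kupffer cell receptor gene Vsig4 at 191 and 82.5 FPKM, and 5 were higher, among them the Kupffer cell lectin gene Clec4f at 144 and 202 FPKM. All 10 endothelial markers summed to 1303 and 1077 FPKM. Markers of other liver cells were low, with sums of 1.83 and 0.388 FPKM over 2 of 8 hepatocyte markers, 4.14 and 5.10 over 4 of 7 lymphocyte markers, 5.73 and 1.61 over 5 mesothelial markers and 4.75 and 2.90 over 2 of 4 cholangiocyte markers. None of these measured markers was at 0 in either library. The RNA thus held macrophage and endothelial transcripts, whose markers had higher median levels than the stellate ones. With vehicle and 4-OHT the median was 11.6 and 4.79 FPKM for stellate, 291 and 246 for macrophage and 101 and 51.9 for endothelial markers. Median log2 changes were −1.19 for stellate, −0.21 for macrophage and −0.33 for endothelial markers. In such bulk RNA, fewer cells of a type and less RNA per cell cannot be told apart, and the part of cell makeup in the synthetase values was not tested.

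Stretches of the promoters of 4 cytosolic synthetase genes are shown because they hold TGATGNAA, a form of the element bound by ATF4 with its partners, searched on both strands. Promoter sequences (RefSeq, GRCm38.p6, 250 bases before to 50 after the start) were matched for 27 of the 36 genes, 13 of them cytosolic. The motif was in 5 of these 27 and in 3.97% of all 32851 promoters of the same length. Each stretch is written 5′ to 3′ on the strand of the gene, with the motif, or its reverse complement TTNCATCA, in capitals. Positions are counted from the RefSeq start, and the GENCODE start can differ. For Yars it lies upstream, at 129189760 on chromosome 4, so the match lies further into the gene as annotated there. A match is a description of the letters and not of binding.
Gars, 30 to 23 bases before the start: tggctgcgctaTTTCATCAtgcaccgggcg
Tars, 15 to 8 bases before the start: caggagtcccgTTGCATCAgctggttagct
Iars, 8 to 15 bases into the transcript: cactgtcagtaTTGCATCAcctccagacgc
Yars, 4 to 11 bases into the transcript: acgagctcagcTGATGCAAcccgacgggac

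Wars was the synthetase gene with the highest change, and a further set of cytosolic genes (Aars, Nars, Cars, Eprs, Sars and Gars) was 1.5-fold to 2-fold higher with 4-OHT, whereas the mitochondrial genes lay near the median of all genes. Changes are the log2 of FPKM plus 1, 4-OHT over vehicle, a scale that understates the change of low genes. Of the 36 members, 1 was higher by 2-fold or more, none was lower by that much and 35 were within it. Among all 13558 genes that reached 1 FPKM in either library, 5.78% were higher and 3.48% lower by 2-fold or more, so at this threshold the members' share was not above the background. At 1.5-fold, 7 of 36 members were higher and none was lower, against 11.7% and 10.2% of all genes. All 7 were among the 20 cytosolic genes, and 0 of the 16 mitochondrial genes reached this threshold on this scale. The low mitochondrial gene Ears2 had a plain ratio of 1.72 without the added 1. With FPKM scaled to the same sum in both libraries, Sars and Gars fell below 1.5-fold and 5 members remained above it.

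The median change was 0.33 over all 36 members, 0.48 over the cytosolic and 0.05 over the mitochondrial genes, beside 0.03 over all genes counted. Of the cytosolic genes 19 of 20, and of the mitochondrial genes 8 of 16, lay above the median of all genes. Both counts were the same when FPKM was scaled to the same sum, which moved the median of all genes to −0.12. As it moves the members nearly alike, these counts could hardly differ. That scaling moved the mitochondrial median to −0.10, so no direction is given for the mitochondrial set. The cytosolic median less the mitochondrial median was 0.43, and the 2 sets overlapped, with cytosolic changes from −0.13 to 1.77 and mitochondrial changes from −0.26 to 0.57.

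**Figure D1:**
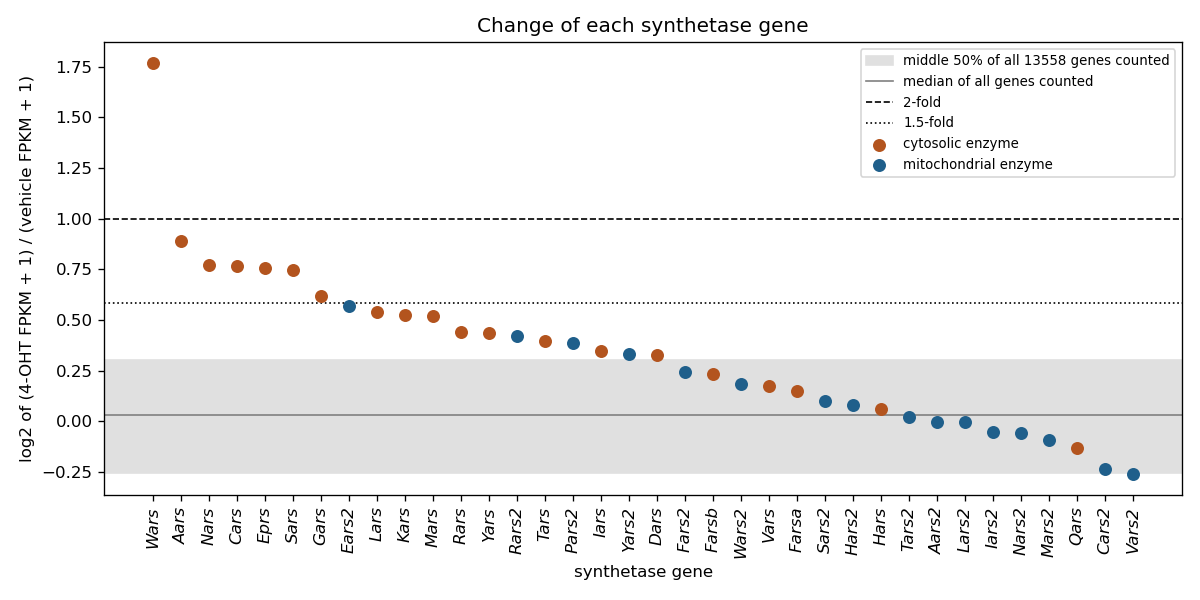
Log2 change of FPKM plus 1 (4-OHT over vehicle, vertical axis) of each of the 36 synthetase genes, ordered from high to low, with 1 library per group. Wars stands alone above the 2-fold line at 1.77, and 6 further cytosolic genes (orange) lie between the 1.5-fold and 2-fold lines, while the mitochondrial genes (blue) lie between −0.26 and 0.57.

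Wars encodes the cytosolic tryptophanyl-tRNA synthetase (GRCm38, chromosome 12, 108860030 to 108894174, minus strand). Its level was 38.1 FPKM in the vehicle and 132 FPKM in the 4-OHT library, a ratio of 3.47 and a log2 change of 1.77. Its change lay at percentile 97.4 of all genes counted, and it exceeded the next member, Aars, by 0.88 and the median of the other 35 by 1.44. In the order of levels Wars moved from rank 13 of 36 with vehicle to rank 4 with 4-OHT. Its share of the summed FPKM of the 20 cytosolic genes was 3.61% with vehicle and 8.15% with 4-OHT. Wars2, which encodes the mitochondrial tryptophan enzyme, was at 4.03 and 4.71 FPKM (0.18). In the authors' deposited table Wars had a q-value of 0.00881 and was the 1 of 36 members under 0.05. Of all 17128 genes, with no minimum level, 1.72% were called higher there. The sources used here do not say how that q-value was estimated from 1 library per group.

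For comparison, 16 interferon-gamma responsive genes had a median change of 2.07, and 14 of them were at least 2-fold higher. The 3 with the largest change were Gbp5 (5.53) and Gbp3 (3.84), which encode guanylate-binding proteins, and the chemokine gene Cxcl9 (5.08). The change of Wars lay below the median of that list and close to that of Psme1, a proteasome activator (1.71), which was named after its values were seen. Of 7 genes of tryptophan breakdown, 1 was measured, the formamidase gene Afmid, at 1.63 and 2.32 FPKM (0.33).

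The other 6 genes above 1.5-fold serve alanine, asparagine, cysteine, glutamate with proline, serine and glycine. Aars, for alanine (chromosome 8, 111033144 to 111057664, plus strand), had 48.5 FPKM in the vehicle and 90.6 FPKM in the 4-OHT library, a log2 change of 0.89. Nars, for asparagine, was at 111 and 190 FPKM (0.77), and Cars, for cysteine, at 52.0 and 89.1 FPKM (0.76). Eprs, a fused enzyme that charges both glutamate and proline, was at 63.2 and 108 FPKM (0.76). These 4 genes and Sars had ratios between 1.68 and 1.87. Sars, which charges serine and also primes the selenocysteine transfer RNA, was at 104 and 175 FPKM (0.75). Gars, for glycine, was at 80.2 and 124 FPKM (0.62). None of the 6 was called in the authors' deposited table, where the q-value was 0.618 for Aars and 0.826 or more for the other 5.

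**Figure D2:**
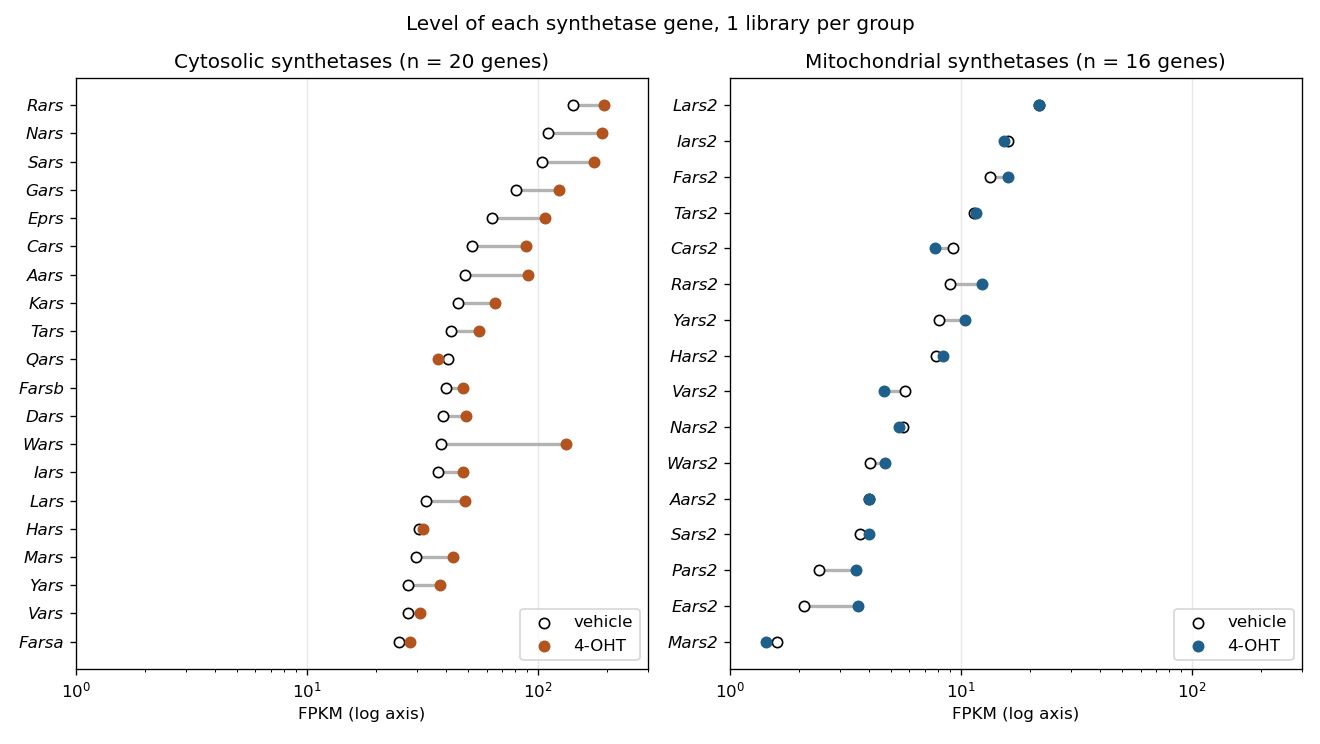
FPKM (log axis) of each synthetase gene with vehicle (open points) and 4-OHT (filled points), 1 library each, with cytosolic genes at left and mitochondrial genes at right, ordered by the vehicle level. Wars has the longest gap, from 38.1 to 132 FPKM, Qars is the cytosolic gene that lies lower with 4-OHT, and every cytosolic gene lies above every mitochondrial gene in both libraries.

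Below these came cytosolic genes with smaller differences. Lars (leucine) was at 32.8 and 48.2 FPKM, Kars (lysine) at 45.1 and 65.4 FPKM and Mars (methionine) at 29.6 and 42.9 FPKM, with log2 changes of 0.54, 0.53 and 0.52. Rars (arginine) had the highest level of all members, at 143 and 194 FPKM (0.44). Yars (tyrosine), at 27.5 and 37.7 FPKM, had a change of the same size (0.44). Tars (threonine) was at 42.0 and 55.7 FPKM (0.40), Iars (isoleucine) at 37.1 and 47.4 FPKM (0.35) and Dars (aspartate) at 38.8 and 48.9 FPKM (0.33). All 8 lay above the upper quartile of all genes, which was 0.30.

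The 5 remaining cytosolic genes lay inside the middle 50% of all genes, from −0.25 to 0.30. Farsa and Farsb encode the alpha and beta subunits of the phenylalanine enzyme. Farsa was at 25.2 and 28.0 FPKM (0.15) and Farsb at 40.1 and 47.2 FPKM (0.23), so the level of Farsb over Farsa was 1.59 with vehicle and 1.68 with 4-OHT. Vars (valine) was at 27.3 and 31.0 FPKM (0.17) and Hars (histidine) at 30.5 and 31.9 FPKM (0.06). Qars (glutamine) was at 40.7 and 37.1 FPKM (−0.13), the 1 cytosolic member with a lower value with 4-OHT.

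Qars was also the 1 member of the 27 with a matched promoter that held a core of the interferon-stimulated response element (GAAA, any 2 bases, GAAA), searched on both strands. This motif was in 3.44% of all promoters. The match lies 199 to 190 bases before the RefSeq start in the window chr9:108507755-108508054 (GRCm38.p6, plus strand). In GENCODE the gene starts at 108507706, upstream of this window, so the match lies inside the gene as annotated there. The match is shown, as its reverse complement in capitals, beside the fact that Qars was lower in the 4-OHT library.
Qars: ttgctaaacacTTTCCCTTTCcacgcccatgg
The motif TTCNNNGAA, a form of the site bound by STAT proteins, was in 3 of the 27 promoters (Kars and Nars2 among them) and in 8.30% of all promoters.

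The 4 genes shown, of the 5 with a TGATGNAA match, had changes of 0.62 (Gars), 0.44 (Yars), 0.40 (Tars) and 0.35 (Iars). As 1 match is not shown, the share of matched genes above 1.5-fold is not given. No promoter was matched for Cars, Hars, Hars2, Lars, Nars, Pars2, Rars, Vars and Wars.

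Mitochondrial synthetases were expressed at lower levels, with a median of 6.79 FPKM with vehicle and 6.58 with 4-OHT, against 40.4 and 52.3 FPKM for the cytosolic genes. Their levels ran from 1.60 to 21.8 FPKM with vehicle and from 1.43 to 21.8 FPKM with 4-OHT. The sum over the 16 genes was 126 and 135 FPKM, a ratio of 1.07, while that over the 20 cytosolic genes was 1056 and 1623 FPKM, a ratio of 1.54. Without Wars, the cytosolic ratio was 1.46.

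Among the mitochondrial genes the highest change was that of Ears2 (glutamate), a low gene at 2.10 and 3.61 FPKM. Its change was 0.57 with a pseudocount of 1, 0.28 with a pseudocount of 5 and 0.75 with a pseudocount of 0.1, so it depends on the scale. Rars2 (arginine) was at 8.99 and 12.4 FPKM (0.42), Pars2 (proline) at 2.44 and 3.51 FPKM (0.39) and Yars2 (tyrosine) at 8.09 and 10.4 FPKM (0.33). These 4 were the mitochondrial genes above the upper quartile of all genes.

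The other 12 mitochondrial genes, with Wars2 among them, had changes from −0.26 to 0.24. Fars2 (phenylalanine) was at 13.4 and 16.0 FPKM (0.24), Sars2 (serine) at 3.67 and 4.01 FPKM (0.10) and Hars2 (histidine) at 7.83 and 8.35 FPKM (0.08). Tars2 (threonine) was at 11.4 and 11.6 FPKM (0.02). Lars2 (leucine), the mitochondrial gene with the highest level, was at 21.8 FPKM in both libraries, and Aars2 (alanine) at 4.00 FPKM in both.
Iars2 (isoleucine) was at 16.0 and 15.4 FPKM (−0.05) and Nars2 (asparagine) at 5.65 and 5.39 FPKM (−0.06). Cars2 (cysteine) was at 9.30 and 7.77 FPKM (−0.23). Vars2 (valine), at 5.75 and 4.63 FPKM (−0.26), was the lowest of all 36 and lay just below the lower quartile of all genes.

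Mars2 (methionine), at 1.60 and 1.43 FPKM, was the 1 member with a single annotated transcript, so its fragments could be recovered. They numbered 685 with vehicle and 487 with 4-OHT, a ratio of FPKM of 0.898 with an exact 95% counting interval of 0.798 to 1.01. For the other members an effective length of 1 kilobase was assumed, while the longest transcript of each has at least 1868 bases. On that assumption the interval was 3.27 to 3.69 for Wars, 1.76 to 1.99 for Aars, 0.843 to 0.984 for Qars and 1.28 to 2.32 for Ears2. The width follows the number of fragments, so the 2 compartments, which differ in level, are not counted against each other by these intervals. The scaling of libraries is left out too. For Farsa the interval was 1.02 to 1.22, while its log2 change was −0.01 with FPKM scaled to the same sum. These intervals cover counting error only and say nothing of the spread between cultures.

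For amino acids with separate genes in both compartments, the cytosolic gene had the larger change in 14 of 17 pairs with a pseudocount of 1. This count depends on the scale. The plain ratio of levels was slightly lower with 4-OHT for Eprs over Ears2 (30.1 with vehicle, 29.8 with 4-OHT) and Rars over Rars2 (15.9 and 15.7). The median difference within pairs was 0.40. After tryptophan (1.58) the differences were largest for cysteine (0.998), alanine (0.89) and asparagine (0.83), where the cytosolic gene was higher with 4-OHT and the mitochondrial gene was near 0 or lower. The exceptions were histidine (−0.02) and both subunits for phenylalanine (−0.01 for Farsb, −0.09 for Farsa), where the changes nearly matched, as they did for arginine (0.02). In all 17 pairs the cytosolic level was higher than the mitochondrial level in both libraries. The ratio ran from 1.51 for leucine to 30.1 for Eprs over Ears2 with vehicle. Its median was 5.59 with vehicle and 11.5 with 4-OHT, both of them the value of Cars over Cars2. That pair had a large difference (0.998), so the 2 medians overstate the typical difference within pairs, which was 0.40. Pairs that share Eprs or Fars2 are not independent of each other.

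**Figure D3:**
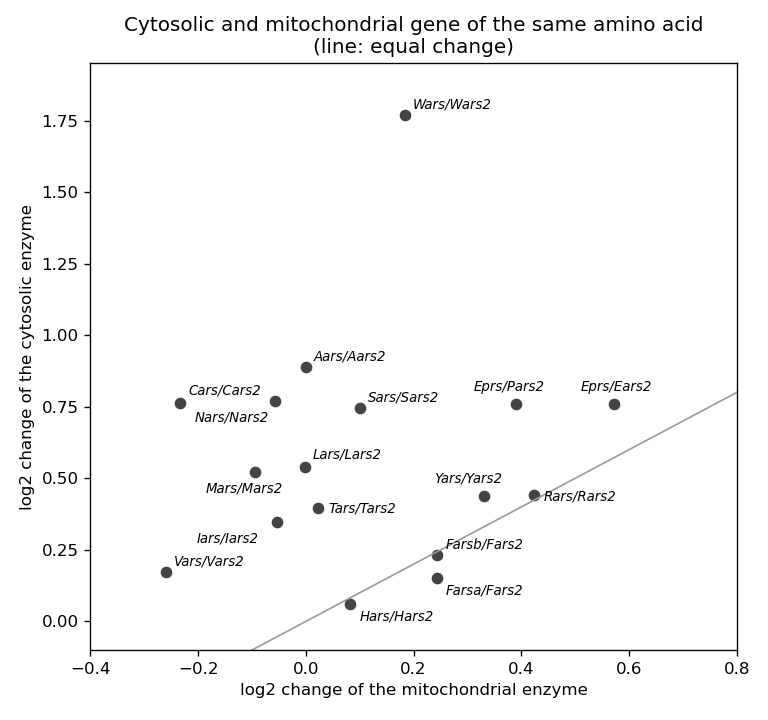
Log2 change (4-OHT over vehicle) of the cytosolic gene (vertical axis) against that of the mitochondrial gene (horizontal axis) for 17 pairs that serve the same amino acid, with a line of equal change. Of the 17 points 14 lie above the line, with Wars/Wars2 farthest from it, while Hars/Hars2 and the pairs of Fars2 lie just below it.

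Members of the multi-synthetase complex and the other cytosolic genes had medians of similar size. The 8 enzymes of the complex (Dars, Eprs, Iars, Kars, Lars, Mars, Qars and Rars) had a median change of 0.48, and the 11 other cytosolic genes without Wars had a median of 0.44. Of the 7 genes above 1.5-fold, Eprs was the 1 in the complex. Its 3 scaffold genes had smaller changes. Aimp1 was at 34.8 and 30.6 FPKM (−0.18), Aimp2 at 16.4 and 18.0 FPKM (0.12) and Eef1e1, which encodes AIMP3, at 11.9 and 13.3 FPKM (0.15). Synthetases fall into 2 unrelated structural classes, and the medians were 0.44 for the 9 cytosolic genes of class I and 0.46 for the 10 of class II, leaving out Eprs, which holds one of each.

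Other genes linked to the charging of transfer RNA had a median of 0.13 over 12 genes, with 0 at least 2-fold higher. Trnt1, which adds the terminal CCA to transfer RNA, was at 24.1 and 40.2 FPKM (0.72) and Gatb, a subunit of the mitochondrial amidotransferase, at 5.23 and 7.48 FPKM (0.44). Sephs2, which makes the selenium donor for selenocysteine, was at 33.2 and 21.2 FPKM (−0.62). Elongation factors, which carry charged transfer RNA to the ribosome or move it along, had a median of −0.33 over 7 genes. Their changes ran from −1.37 to −0.001, so none was above 0 and the highest was near 0. Eef1a2 was at 7.19 and 2.16 FPKM (−1.37) and Eef1d, an exchange factor, at 118 and 83.2 FPKM (−0.49). The 9 mitochondrial translation factors had a median of 0.19, with Tufm, the mitochondrial elongation factor Tu, at 14.96 and 10.8 FPKM (−0.43).

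Genes of amino acid supply and of the stress response include many known ATF4 targets, and 2-fold higher values are set here against the 5.78% of all genes given above. Of 15 measured genes of amino acid synthesis 14 reached 1 FPKM. Of these 14, 2 were at least 2-fold higher and 0 lower, with a median of 0.44. Asns, asparagine synthetase, was at 47.3 and 94.8 FPKM (0.99), Phgdh, the first enzyme of serine synthesis, at 12.7 and 27.3 FPKM (1.04) and Cth, which makes cysteine, at 0.744 and 3.94 FPKM (1.502). Of 15 measured amino acid transporters 14 reached 1 FPKM, and 5 of these 14 were at least 2-fold higher, with a median of 0.48. Slc3a2, the heavy chain of several exchangers, was at 111 and 304 FPKM (1.45), its partner Slc7a5 at 9.63 and 23.3 FPKM (1.19) and the glycine transporter gene Slc6a9 at 3.62 and 9.89 FPKM (1.24).

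Of 17 measured ATF4 and stress genes 6 were at least 2-fold higher and 0 lower, with a median of 0.80. The 3 with the largest change were Ddit3, which encodes CHOP (2.43), Trib3 (2.22) and Nupr1, a stress-induced chromatin protein, at 21.2 and 94.2 FPKM (2.10). Atf4 itself, named after its values were seen, was at 142 and 240 FPKM (0.75). Of 4 kinases that start this response by phosphorylating eIF2 alpha, Eif2ak2, the interferon-induced sensor PKR, had a change of 1.78. Eif2ak3, which encodes PERK, was at 11.2 and 6.34 FPKM (−0.73) and Eif2ak4, which encodes GCN2, the sensor of uncharged transfer RNA, at 9.74 and 8.74 FPKM (−0.14).

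**Figure D4:**
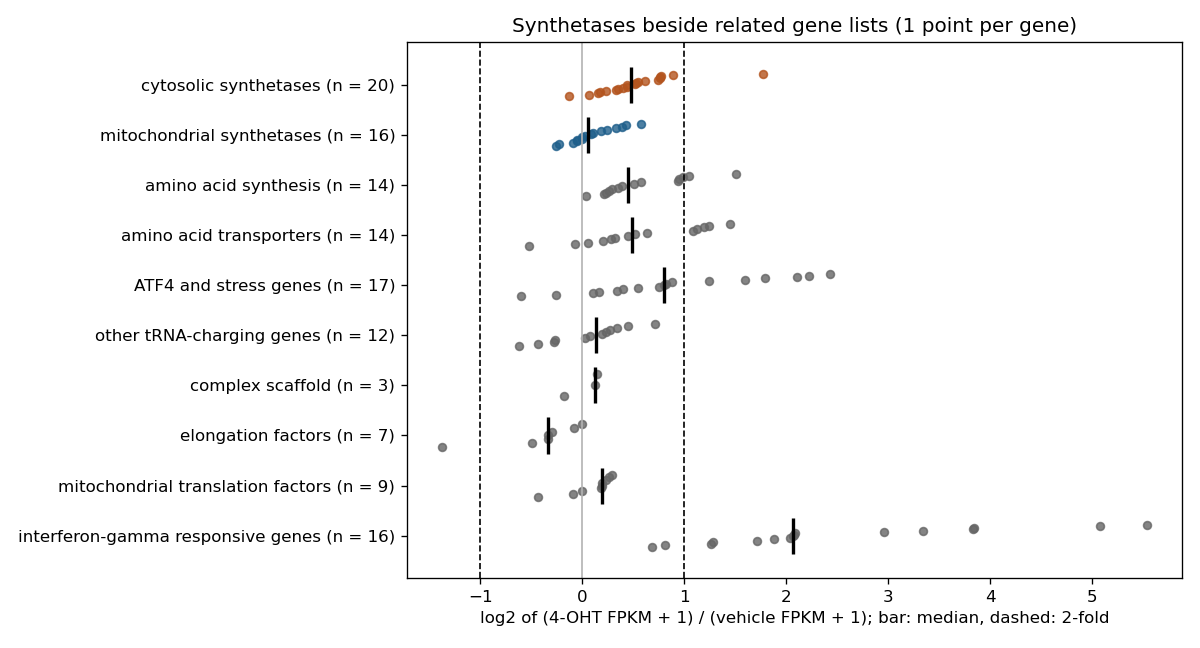
Log2 change (4-OHT over vehicle, horizontal axis) of single genes in the synthetase sets and in 8 related lists, 1 point per gene that reached 1 FPKM in either library, with the median as a bar and 2-fold as dashed lines. The cytosolic synthetases (median 0.48) lie beside amino acid synthesis (0.44) and transport (0.48), the mitochondrial synthetases (0.05) and elongation factors (−0.33) lie lower, and the interferon-gamma responsive genes (2.07) lie higher.

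No source used here says whether fragments were counted by strand. In the annotation 8 members share exonic bases with another measured gene on the opposite strand. Mars shares 68 exonic bases, 1.99% of its exonic sequence, with Ddit3, whose change was 2.43, and without strand the fragments of these bases cannot be told apart. Hars and Hars2, which face away from each other, share 195 bases, and Iars2 shares 22.9% of its exonic bases with Rab3gap2. None of the 7 members at least 1.5-fold higher was among these 8. Leaving the 8 out, which kept 7 of 28, thus could not lower that count (11.7% of all genes). Aars is among the 7, though it shares 14.3% of its exonic bases with Exosc6 on the same strand. Exosc6 was not measured, so this overlap was not part of the check.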

How the data were processed

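Total RNA of 2 libraries, 1 vehicle and 1 4-OHT, was analysed from 1 deposited table. Its FPKM values were made by the authors, with STAR, Cufflinks and GRCm38, per the submitters' processing notes, which state neither versions nor roles. The scaling of libraries to each other is not given in the sources used here. Recomputing the log2 fold change from FPKM plus 1 matched the deposited log2 column to within 1.6e-14 in every one of the 17145 rows. Per the file headers, the authors also deposited p-values, q-values and the −log10 of the p-value, and how these were estimated from 1 library per group is not stated there.

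All 17145 gene identifiers matched GENCODE M21, which gave coordinates, transcripts and overlaps, and 20 symbols were restored from them. The row with the largest sum was kept for a repeated symbol, leaving 17128. The 13558 genes that reached 1 FPKM in either library were counted, at 2-fold and 1.5-fold, with a pseudocount of 1. Fragments were recovered from low values of single-transcript genes longer than 600 bases. In the vehicle library 97.7% of 436 such values, and in the 4-OHT library 99.1% of 536, were within 0.1 of a whole number. The code was tested on simulated data. Python 3.11.15, numpy 2.4.6, pandas 2.3.3 and scipy 1.17.1 were used.

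The members and lists were chosen with earlier results of these data known. All 36 members are given, and 1 promoter sequence is not reported here. Of other lists the 3 measured genes with the largest absolute change were named, taking elongation and mitochondrial translation factors as 1 list. Alternatives were pseudocounts of 0.1 and 5, FPKM scaled to the same sum, centring and other minimum values. Others left out Gars with Kars, Wars, or members that share exonic bases with a measured gene.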

Additional observations from a re-analysis of the deposited data

How the results depend on the processing

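Wars had the highest change of the members under every alternative run, from 1.62 (FPKM scaled to the same sum) to 1.79 (pseudocount of 0.1), and the cytosolic median stayed above the mitochondrial one. With FPKM scaled to the same sum, the median change was 0.18 over all members, 0.32 over the cytosolic and −0.10 over the mitochondrial genes, and the values of Farsa, Hars, Hars2, Sars2 and Tars2 changed sign. With a pseudocount of 5 the median over all members was 0.23. The count of higher members was 1 at 2-fold and 7 at 1.5-fold. At 1.5-fold it was 5 with FPKM scaled to the same sum (9.68% of all genes), 6 when centred on the median of all genes (10.8%) and 8 with a pseudocount of 0.1 (14.4%), which added Ears2. Leaving out members that share exonic bases with a measured gene was chosen after seeing the data, as was the 1.5-fold count under the other alternatives. No paired analysis was possible because each group holds 1 library. With 1 library per group, the spread between cultures is unknown, and depth limits mainly the low mitochondrial genes.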

Other observations

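The cytosolic genes were also grouped by whether mammals can make the amino acid, a grouping chosen after the values were seen and given with no test. The 10 genes for amino acids that mammals can make (Aars, Cars, Dars, Eprs, Gars, Nars, Qars, Rars, Sars and Yars) had a median change of 0.68. Of these, 6 were at least 1.5-fold higher, against 11.7% of all genes. With FPKM scaled to the same sum, Sars and Gars fell below 1.5-fold. The 9 genes other than Wars for amino acids that come from the diet (Farsa, Farsb, Hars, Iars, Kars, Lars, Mars, Tars and Vars) had a median of 0.35, and 0 of them reached 1.5-fold. The highest of these 9 was Lars at 0.54. With Wars, the 10 genes for amino acids from the diet had a median of 0.37, and 1 was at least 1.5-fold higher. Within the first group, Qars (−0.13) and Dars (0.33) had the lowest changes.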
